A study of Homo sapiens with 4 samples.

Results

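The genes described here are 9 genes through which monocytes act on fibrin: PLAU, PLAUR, SERPINB2, ANXA2 and S100A10 of plasminogen activation, F3, THBD and TFPI of the start and restraint of coagulation, and F13A1 of fibrin cross-linking. Members were taken by the gene name that the array files give to a probe, which found all 9 names among 27193 names on the array and 13 probes among 34127. After miR-511 mimic, none of the 10 probes that could be tested was differentially expressed against control mimic, where 2.2% of all tested probes passed the unadjusted threshold. Differences between the experiments were larger than differences between the mimics for 6 of the 8 tested genes, as they were for 62.0% of all tested probes. SERPINB2 was lower in experiment 2 than in experiment 1 with both mimics, by 0.65 on the log2 scale in the mean, and F3 differed in opposite directions between the mimics in the experiments.

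The cells were THP1, a human monoblastic acute myeloid leukemia cell line that carries the MLL-AF9 fusion gene in all groups. A mimic is a small duplex RNA made to act as a given mature miRNA once it is transfected. Cells received 30 nM of miR-511-5p mimic or of negative control #1 mimic once, were kept in low-serum medium with albumin, and gave total RNA on day 2. Each of 2 independent experiments provided 1 array per mimic, so that 2 arrays stand for each mimic and the same line underlies both replicates. No array of untransfected cells was analysed here. The question put to these arrays was which transcripts differ when miR-511 is raised in monoblasts.

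Plasminogen is cut to plasmin, the protease that dissolves fibrin, by plasminogen activators, of which urokinase is the one that monocytes carry on their surface, bound to its receptor. Coagulation is started when tissue factor on a cell binds factor VIIa, and it ends in thrombin, which makes fibrin that factor XIII cross-links. Monocytes are known as a blood source of tissue factor, of the factor XIII A subunit and of the urokinase inhibitor SERPINB2.

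The mimic supplies the mature sequence of hsa-miR-511-5p, of which RefSeq (GRCh38.p14) places the 21 bases at chr10:17845122-17845142 on the plus strand. It is shown because it is the RNA that the treated cultures received and the control cultures did not, and the capitals mark the seed, bases 2 to 8, through which a miRNA pairs with its targets.
hsa-miR-511-5p: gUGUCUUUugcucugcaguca

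Each probe is a DNA oligo of 60 bases with the sequence of the transcript. Shown are 4 probes of the plasminogen genes, on which the results turn most, and one probe each of TFPI and F13A1 that gave no signal well above background. They are printed in lower case 5′ to 3′, with hg19 coordinates as the files give them.
PLAU probe 2, chr10:75674614-75674673, plus strand: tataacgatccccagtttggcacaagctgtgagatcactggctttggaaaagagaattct
PLAUR, chr19:44169498-44169557, minus strand: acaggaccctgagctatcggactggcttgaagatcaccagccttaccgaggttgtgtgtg
SERPINB2, chr18:61570202-61570261, plus strand: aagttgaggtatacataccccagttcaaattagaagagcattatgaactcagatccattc
ANXA2 probe 1, chr15:60639880-60641324, minus strand: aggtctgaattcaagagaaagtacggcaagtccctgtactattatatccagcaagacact
TFPI probe 1, chr2:188343406-188343465, minus strand: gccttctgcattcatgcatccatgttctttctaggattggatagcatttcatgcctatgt
F13A1 probe 2, chr6:6222267-6222326, minus strand: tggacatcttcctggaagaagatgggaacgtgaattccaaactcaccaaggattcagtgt
The ANXA2 probe 1 spans 1445 bases of the genome with its 60 bases, so it crosses an intron. The other probes lie in unbroken genomic stretches of 60 bases. The remaining probes lie at chr10:75677050-75677109 (PLAU probe 1, plus strand), chr15:60639588-60639647 (ANXA2 probe 2, minus strand), chr1:151955420-151955479 (S100A10, minus strand), chr1:94995080-94995139 (F3, minus strand), chr20:23026807-23026866 (THBD, minus strand), chr2:188329008-188329067 (TFPI probe 2, minus strand) and chr6:6144425-6144484 (F13A1 probe 1, minus strand). All 13 probes matched a RefSeq transcript by accession, and the RefSeq symbol was that of the files each time.

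The arrays had 22130 to 23647 of the 34127 probes with a signal well above background, and no non-control spot was saturated. Of 10 genes listed as markers of monocytic cells, 8 were found on the array under these names, and all 8 (CD14, CD33, MPO, CSF1R, CD68, PTPRC, CD4 and ITGAX) were well above background on all 4 arrays. Of 5 endothelial markers CDH5 and VWF were, while KDR, TEK and ROBO4 were not on any array. Of the platelet markers GP9, GP1BA and ITGA2B were, and PPBP was on none. COL1A1, COL3A1 and PDGFRB of fibroblasts and ALB of hepatocytes were on none. VWF, GP1BA and ITGA2B were dim, with log2 values between 3.78 and 4.95. No tested marker gene passed an unadjusted p of 0.05 between the mimics by limma. With the experiment number as a block CDH5 did (log2FC 0.36).

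Values are log2 of the intensity after quantile normalization of the arrays. The filter for testing asked for a signal well above background on both arrays of one mimic or the other. Of the 13 probes 10 passed, for 8 genes, and the 2 probes of TFPI and 1 of F13A1 did not. Calls were made by limma at an unadjusted p below 0.05, the first of the conditions in the methods of the study, and after Benjamini-Hochberg adjustment over all 22638 tested probes. The methods ask in addition that a change be significant over identical replicate probes, which was not applied here and concerns PLAU probe 1 alone among the member probes. An exact permutation test (two-sided) of 2 arrays against 2 cannot go below a p of 0.333, so the calls rest on the spread that limma shares among probes.

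**Figure D1:**
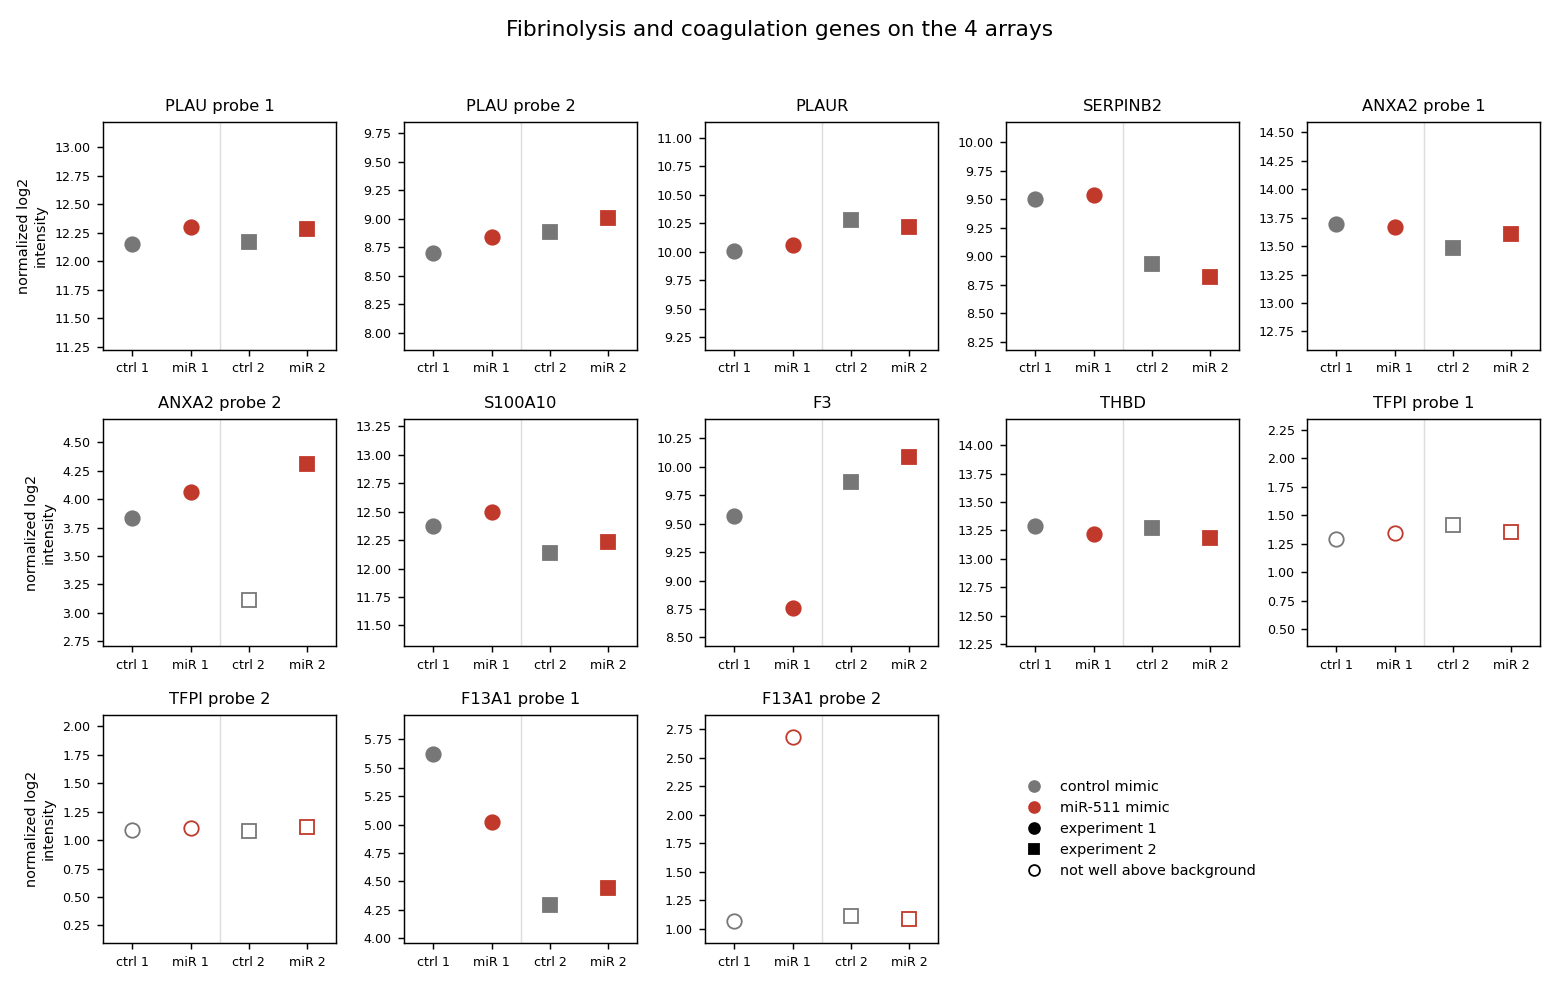
Normalized log2 intensity (y axis, each panel with its own range) of the 13 probes on the 4 arrays, which are control mimic (ctrl) and miR-511 mimic (miR) of experiments 1 and 2. Each point is 1 array, and open points were not well above background. SERPINB2 is near 9.5 on both arrays of experiment 1 and near 8.9 on both of experiment 2, and F3 is lowest on the miR-511 array of experiment 1.

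Between miR-511 and control mimic, 0 of the 10 tested member probes passed the unadjusted threshold of limma, against 2.2% of all tested probes, and 3 had groups that did not overlap, against 25.7%. The median log2FC over the 8 genes, each taken at its brightest probe, was -0.021, and the median of its size was 0.092. Over all tested probes these medians were 0.0098 and 0.079. The member genes moved in the same direction in both experiments in 3 of 8 cases, PLAU and S100A10 upward and THBD downward. No gene passed adjustment, each member probe having an adjusted p of 1.00 from limma, and the smallest adjusted p of any probe on the array was 0.790. In RNA from whole cultures, a change in how many cells express a gene and a change in RNA per cell cannot be told apart.

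PLAU, urokinase, is measured by 2 probes. Probe 1 had values of 12.30 with miR-511 mimic and 12.15 with control mimic in experiment 1, and of 12.28 and 12.17 in experiment 2. Both miR-511 arrays were above both control arrays, and their distance was 0.15 and 0.11 within the experiments. The log2FC was 0.13 (standard error 0.089, 95% interval -0.11 to 0.37; unadjusted p = 0.212 by limma). Probe 2 had values of 8.84 and 8.70 in experiment 1, and of 9.01 and 8.88 in experiment 2, with the miR-511 array first. It was thus higher with miR-511 mimic by 0.14 and 0.12 in the experiments, but its groups overlapped because both arrays of experiment 2 were above those of experiment 1. Its log2FC was 0.13 as well (standard error 0.12; unadjusted p = 0.345 by limma), but leaving out single arrays moved it to between 0.039, without the control array of experiment 1, and 0.22, without that of experiment 2. The 2 probes measure the same RNA extracts and are no replicates of each other.

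Probe 1 of PLAU was printed 10 times on each array, which shows how well a single array reads this transcript. In experiment 1 its spots ranged from 12.18 to 12.45 with miR-511 mimic (SD 0.085) and from 12.08 to 12.21 with control mimic (SD 0.045). In experiment 2 they ranged from 12.19 to 12.33 (SD 0.046) and from 12.03 to 12.26 (SD 0.080). The spots of the mimics thus overlapped in both experiments, and no spot was marked by the scanner software. The spread between spots is technical, and over 738 tested probes printed more than once the median SD was 0.073.

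**Figure D2:**
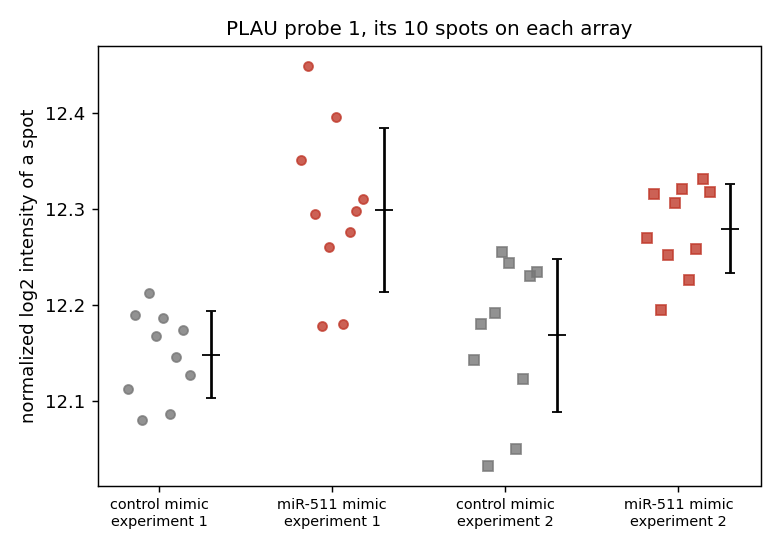
Normalized log2 intensity of the 10 spots of PLAU probe 1 on each of the 4 arrays, with the mean and SD over spots as a black bar at the side. The miR-511 arrays have means of 12.30 and 12.28 and the control arrays of 12.15 and 12.17, with spots of both mimics between 12.18 and 12.26.

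PLAUR, the urokinase receptor, is a membrane-anchored protein that focuses urokinase on the cell surface. Its probe had values of 10.06 with miR-511 mimic and 10.002 with control mimic in experiment 1, and of 10.21 and 10.28 in experiment 2. The sign of the difference between mimics changed from one experiment to the other, and both arrays of experiment 2 were above both of experiment 1. The log2FC between mimics was -0.0046 (standard error 0.14, 95% interval -0.39 to 0.38), and it was 0.072 without the miR-511 array of experiment 1 and 0.13 without the control array of experiment 2.

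SERPINB2, plasminogen activator inhibitor 2, inhibits urokinase and is known as a product of activated monocytes. It had values of 9.54 with miR-511 mimic and 9.51 with control mimic in experiment 1, and of 8.82 and 8.93 in experiment 2. The mimics lay close together within each experiment, by 0.033 and -0.11, while the experiments were apart. The log2FC between mimics was -0.038 (standard error 0.33), and since that standard error holds the difference between experiments, the 95% interval runs from -0.95 to 0.87. Its sign turned with normexp background correction (0.025), without the control array of experiment 1 (0.25) and without the miR-511 array of experiment 2 (0.32). With the experiment number as a block, the standard error was 0.087.

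ANXA2 and S100A10 form the annexin complex that binds plasminogen at cell surfaces. ANXA2 probe 1 had values of 13.66 with miR-511 mimic and 13.70 with control mimic in experiment 1, and of 13.61 and 13.49 in experiment 2. It went down by 0.033 in experiment 1 and up by 0.12 in experiment 2, so that the log2FC of 0.045 (standard error 0.12) joins opposite signs, and it was -0.061 without the control array of experiment 2. S100A10 had values of 12.50 and 12.37 in experiment 1, and of 12.23 and 12.14 in experiment 2, with the miR-511 array first. It was higher with miR-511 mimic in both experiments, by 0.12 and 0.092, but both arrays of experiment 1 were above both of experiment 2. Its log2FC was 0.11 (standard error 0.15, 95% interval -0.31 to 0.52), and it turned to -0.026 without the miR-511 array of experiment 1 and to -0.010 without the control array of experiment 2.

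ANXA2 probe 2 was dim. It had values of 4.06 with miR-511 mimic and 3.84 with control mimic in experiment 1, and of 4.31 and 3.11 in experiment 2, where the control array was not well above background. Its log2FC was 0.71 (standard error 0.28; unadjusted p = 0.063 by limma), with both miR-511 arrays above both control arrays. The probe passed the filter through its miR-511 arrays, and the size of the difference is uncertain. Without the control array of experiment 2, the one not well above background, it was 0.35, and with normexp background correction 0.099. Probe 1 of the same gene gave 0.045, and hybridization of transcripts of ANXA2-related pseudogenes was not tested.

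F3, tissue factor, is the membrane receptor that starts coagulation. Its probe had values of 8.76 with miR-511 mimic and 9.57 with control mimic in experiment 1, and of 10.09 and 9.87 in experiment 2. The miR-511 array was lower by 0.81 in experiment 1 and higher by 0.22 in experiment 2, so the experiments gave opposite directions. Its log2FC was -0.29 (standard error 0.48, 95% interval -1.62 to 1.03). Without the miR-511 array of experiment 2 the log2FC was -0.96 with an unadjusted p of 0.00908, and without the miR-511 array of experiment 1 it was 0.37. Which array stands apart cannot be read from 1 array per mimic and experiment.

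THBD, thrombomodulin, is the surface cofactor with which thrombin activates protein C, a brake on coagulation. It had values of 13.22 with miR-511 mimic and 13.28 with control mimic in experiment 1, and of 13.18 and 13.27 in experiment 2. Both miR-511 arrays were below both control arrays, by 0.067 and 0.086 in the experiments. The log2FC was -0.077 (standard error 0.089, 95% interval -0.32 to 0.17; unadjusted p = 0.437 by limma). Among the tested member probes, THBD had the 4 values that lay closest together.

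TFPI, tissue factor pathway inhibitor, shuts off the complex of tissue factor and factor VIIa. Both of its probes stayed short of a signal well above background on each array, and the scanner software replaced their intensity by a surrogate value on all 4. No fold change is given for TFPI.

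F13A1, the A subunit of factor XIII, is the transglutaminase that cross-links fibrin. Its probe 1 had values of 5.02 with miR-511 mimic and 5.62 with control mimic in experiment 1, and of 4.44 and 4.30 in experiment 2. It was lower with miR-511 mimic by 0.61 in experiment 1 and higher by 0.14 in experiment 2, and both arrays of experiment 1 were above both of experiment 2. The log2FC was -0.23 (standard error 0.51, 95% interval -1.63 to 1.17). Without the control array of experiment 1 it was 0.43, and without the miR-511 array of experiment 2 it was 0.057. Probe 2 had no array with a signal well above background, and its intensity was a surrogate on 3 of them.

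**Figure D3:**
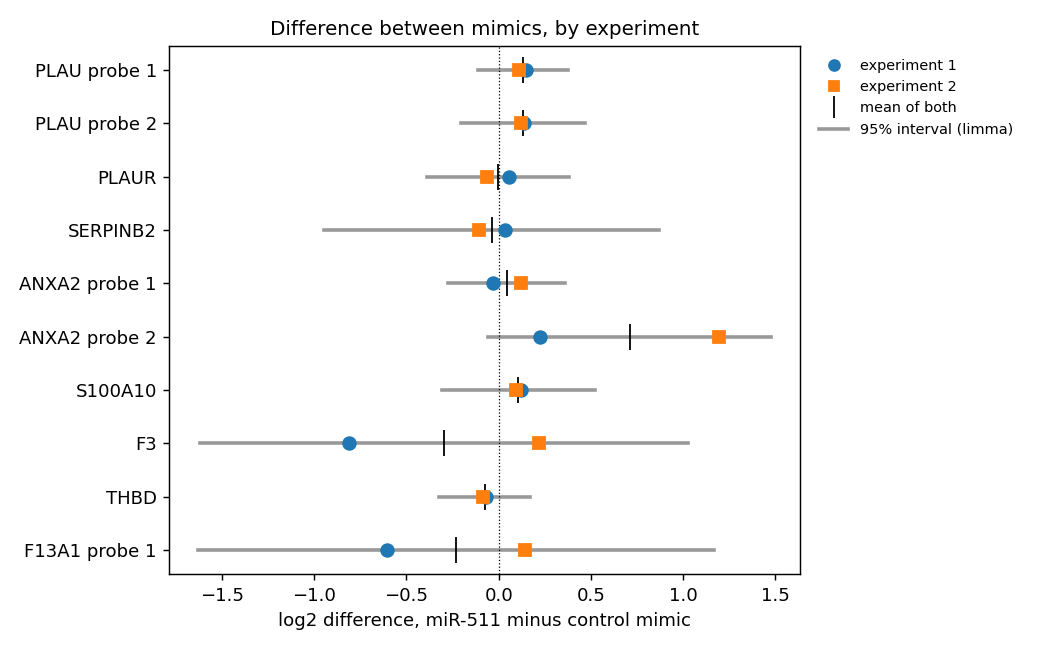
Log2 difference of miR-511 minus control mimic (x axis) for the 10 tested probes (y axis), with experiment 1 as circles, experiment 2 as squares, their mean as a black mark and the 95% interval of limma as a grey bar. All 10 intervals include 0, and F3 has experiment values of -0.81 and 0.22.

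Between experiment 2 and experiment 1, 4 of the 10 member probes passed the unadjusted threshold of limma, against 13.6% of all tested probes. They were PLAUR, which was higher in experiment 2, and SERPINB2, S100A10 and F13A1 probe 1, which were lower. None passed adjustment over all tested probes, of which 3074 had an unadjusted p below 0.05 and 0 (0%) an adjusted one by limma. For 7 of the 10 member probes the arrays of the experiments did not overlap, against 48.9% of all tested probes. The median size of the difference was 0.23 over the 8 member genes and 0.12 over all tested probes. The difference between experiments was larger in size than that between mimics for 6 of the 8 member genes, all but PLAU and THBD, and for 62.0% of all tested probes.

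SERPINB2 differed most clearly. It was lower in experiment 2 by 0.58 with control mimic and by 0.72 with miR-511 mimic, and the difference of -0.65 (standard error 0.077, 95% interval -0.86 to -0.43) corresponds to a 1.57-fold lower level. The unadjusted p was 0.00117 and the adjusted p 0.218 by limma. It stayed past the unadjusted threshold with each array left out in turn. F13A1 probe 1 was lower in experiment 2 by 1.33 with control mimic and by 0.58 with miR-511 mimic. Its difference of -0.95 had a standard error of 0.23 and an adjusted p of 0.285, and without either array of experiment 2 and by the plain test of each probe it no longer passed. The difference was -1.02 without the miR-511 array and -0.88 without the control array. With normexp background correction it was -0.29. On these dim signals, intensities before normalization were 53.5 on the control array of experiment 1 and 19.3 to 28.1 on the other arrays.

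PLAUR was higher in experiment 2 by 0.28 with control mimic and by 0.15 with miR-511 mimic. Its difference was 0.21 (standard error 0.072; adjusted p = 0.356 by limma). S100A10 was lower by 0.24 and by 0.27, with a difference of -0.25 (standard error 0.085; adjusted p = 0.358 by limma). Neither gene passed the unadjusted threshold once any 1 array was left out, with values of 0.18 to 0.25 for PLAUR and of -0.31 to -0.19 for S100A10. PLAUR also lost its call with the mimic as a term in the fit (unadjusted p = 0.086 by limma) and with normexp background correction, and S100A10 lost it with 75th percentile scaling, without a filter on dim probes and by the plain test of each probe.

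F3 was higher in experiment 2 by 0.30 with control mimic and by 1.33 with miR-511 mimic. The difference of 0.82 (standard error 0.31; adjusted p = 0.381 by limma) did not pass the unadjusted threshold. It passed with normexp background correction, where it was 0.90, with an intensity trend, with the filter asking for all 4 arrays, and without the control array of experiment 1, where it was 1.22. Without the miR-511 array of experiment 1 it was 0.41 and did not pass. PLAU probe 1 differed by 0.00015 and THBD by -0.027, or by 0.0010 with 75th percentile scaling, and neither passed. The plasminogen genes did not move in a single direction. Between experiments PLAUR was higher, and SERPINB2 and S100A10 were lower. PLAU probe 1 and ANXA2 probe 1 did not pass, with values of 0.00015 and -0.13. PLAU probe 2 and ANXA2 probe 2 did not pass either, with values of 0.18 and -0.24. For PLAU probe 2 both arrays of experiment 2 were above both of experiment 1. With normexp background correction ANXA2 probe 1 was lower in experiment 2 past the unadjusted threshold, at -0.17.

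Of the 8 monocytic markers 3 were lower in experiment 2 at an unadjusted p below 0.05 by limma, CSF1R by 0.25, CD68 by 0.29 and PTPRC, at its brightest probe, by 0.30, where 13.6% of all tested probes passed, and of the other lists ALAS2 of erythroid cells was. The other 4 probes of PTPRC were lower by 0.030 to 0.21 and did not pass. With the mimic as a term in the fit, CSF1R and PTPRC no longer passed, and GP1BA of platelets did, higher by 0.32. The mean log2 value of the 8 monocytic markers was 10.94 and 10.96 on the arrays of experiment 1 and 10.83 and 10.78 on those of experiment 2, with the miR-511 array first. The part of the culture's monocytic state or of any technical step in the differences between experiments was not tested.

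**Figure D4:**
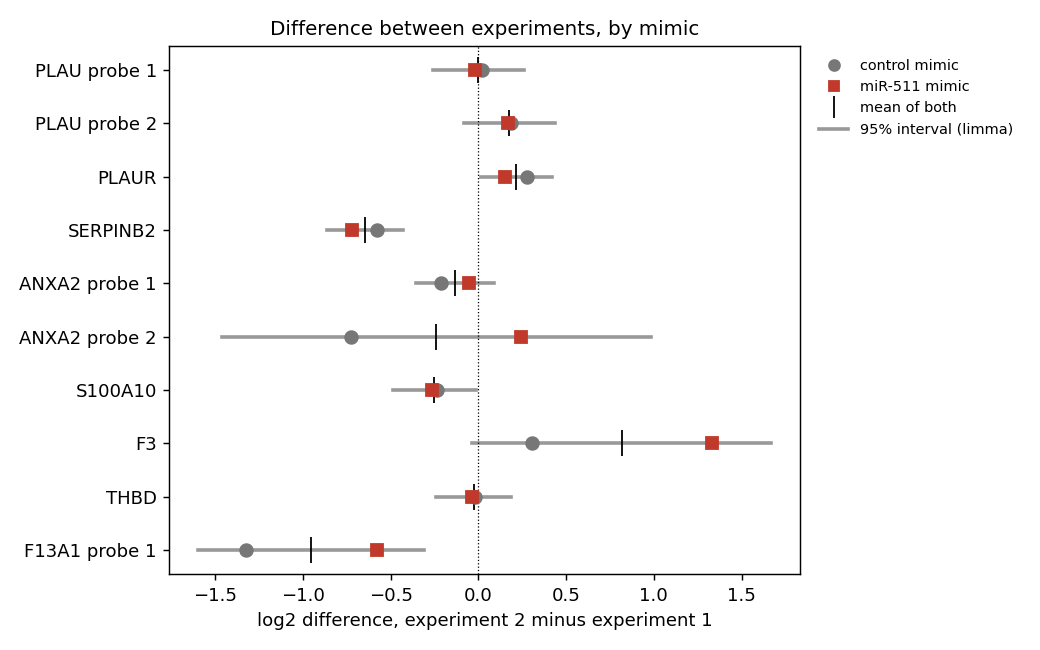
Log2 difference of experiment 2 minus experiment 1 (x axis) for the 10 tested probes (y axis), with control mimic as circles, miR-511 mimic as squares, their mean as a black mark and the 95% interval of limma as a grey bar. SERPINB2 lies at -0.65 with an interval from -0.86 to -0.43, and the control mimic and miR-511 mimic values of F3 are 0.30 and 1.33.

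Of 48 further genes of coagulation and fibrinolysis, all had a probe on the array and 29 could be tested. Between mimics 3 of the 29 passed the unadjusted threshold of limma, where 2.2% of all tested probes did, and 0 passed adjustment. Of these 3, F10 and KLKB1 entered the test through the mimic in which they were higher, and with the filter asking for all 4 arrays the count was 1, so nothing is read from it. The median log2FC was 0.055, with 20 genes above 0 and 9 below. Over all tested probes the median was 0.0098, with 12157 of 22638 above 0. LRP1, the endocytic receptor that clears protease and inhibitor complexes, had values of 4.03 and 3.47 in experiment 1 and of 3.98 and 3.48 in experiment 2 with miR-511 and control mimic. The miR-511 arrays were thus higher by 0.56 and 0.50, with a log2FC of 0.53 (standard error 0.090). A second LRP1 probe, printed 10 times and well above background on the control array of experiment 1 alone, was not tested. Its miR-511 array was lower by 0.50 in experiment 1 and higher by 0.21 in experiment 2, differences whose size is uncertain so near background. The call of LRP1 thus rests on 1 of its 2 probes, and the other did not repeat its direction in experiment 1. KLKB1, plasma prekallikrein, had a log2FC of -0.48 (standard error 0.096), and F10, factor X, one of 0.59 (standard error 0.21). Both KLKB1 and F10 lacked a signal well above background on 1 of the 4 arrays, which leaves the size of their differences uncertain. With the experiment number as a block F10 no longer passed (unadjusted p = 0.081 by limma). SERPINA1, antitrypsin, then passed (unadjusted p = 0.022 by limma), with a log2FC of 0.60 and differences of 0.80 and 0.41 in the experiments. A second SERPINA1 probe was well above background on no array. LRP1, KLKB1 and F10 were dim, with values between 3.34 and 4.29, and none of them passed with normexp background correction or with an intensity trend.

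Among the other fibrinolysis genes named here, PLAT, the tissue-type activator, PLG, plasminogen itself, and CPB2 gave no signal well above background. ENO1, PLGRKT, SERPINF2, LRP1 and VLDLR were on all 4, of which ENO1 and PLGRKT are plasminogen receptors. Of 15 coagulation factors, F5, F9, F13B, FGA, FGB and FGG were on none, and F2, F7, F8, F12 and VWF on all 4. Among these genes F7 (4.60 to 4.93), VWF (4.28 to 4.67) and SERPINF2 (3.57 to 3.75) were dim. Probes not well above background had values of up to 3.77 to 4.57 on the arrays. F2RL1 and F2RL2 among receptors, TFPI2, SERPINA5 and SERPIND1 among inhibitors and TGM2 among relatives of the members were also on none. On all 4 arrays were 5 of 8 receptors and cofactors, 3 of 6 inhibitors, 4 of 5 relatives of the members, and all 4 vitamin K and disulfide enzymes, GGCX, VKORC1, P4HB and PDIA3. THP1 cells thus gave signal for urokinase and its receptor but not for PLAT on these probes.

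Between experiments, 6 of the 29 genes passed the unadjusted threshold of limma, against 13.6% of all tested probes, and 0 passed adjustment. PROC, protein C, and ANXA1, annexin A1, were higher in experiment 2, by 0.56 and 0.35. VLDLR, SERPINB8, F12 and SERPINC1, antithrombin, were lower, by 0.27, 0.28, 0.28 and 0.38. The PROC probe was dim, with values of 4.31 to 5.11, and a second PROC probe was well above background on no array. SERPINC1 was dim as well, with values of 4.15 to 4.58. With the mimic as a term in the fit SERPINB8 no longer passed, while GAS6 and SERPINA1 did. The size of the difference had a median of 0.15 over the 29 genes.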

How the data were processed

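RNA of 4 THP1 cultures was hybridized to single-dye Agilent whole genome arrays. The authors deposited scanner files whose processed intensity per spot is background-subtracted, with dim spots set to a surrogate, and is not normalized between arrays. The file headers name Feature Extraction 10.7.3.1, the submitters' processing notes 10.5.1.1. The authors also deposited a table of quantile-normalized log2 values, used as an alternative. Annotation is hg19.

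Log2 processed intensity was computed for 43118 non-control spots, without the 232 to 301 spots per array marked as outliers. Arrays were quantile normalized, and spots of a probe averaged. For a probe printed several times, more than 50% of its spots had to be well above background. limma 3.58.1 in R 4.3.3 (lmFit, eBayes, checked on simulated data) compared 2 against 2 arrays with no covariate, as the methods name none. The experiments were compared in the same way. The simulated arrays varied independently, with no difference between experiments, so the check does not cover variation that arrays of an experiment share. P-values are two-sided. The number of arrays limits precision.

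The experiment number pairs the arrays by the labels, and same-numbered arrays deviated together (correlation 0.271 across probes). The block was an alternative. Every member probe is named, and of the 48 pathway genes those past the unadjusted threshold, with detection by role. A gene is represented by its brightest tested probe. PLGRKT carries an older symbol in the files and was matched by accession. The members and lists were chosen with earlier results of these data known. Protein sequences and promoters were not used here. One gene of the pathway list is not reported here by name.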

Additional observations from a re-analysis of the deposited data

How the results depend on the processing

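Over all alternatives no member probe passed adjustment. The call of SERPINB2 between experiments stood in every setting that kept all 4 arrays, and its difference was -0.70 to -0.59 without an array. The count of member probes past the unadjusted threshold between mimics was 0 except with the plain equal-variance test of each probe, which called 1 (PLAU probe 1), and without an array, with 0 to 1: ANXA2 probe 2 without control mimic replicate 1 and F3 without miR-511 mimic replicate 2. The control array left in the former was not well above background. Between experiments the count was 4, 3 with 75th percentile scaling, without a filter on dim probes and with the replicate block design, 5 with normexp correction, an intensity trend and the filter asking for all 4 arrays, 2 by the plain test, and 1 to 3 without an array: 2 without either miR-511 mimic replicate and 1 without control mimic replicate 2. All probes past the threshold between mimics numbered 265 with normexp correction, 1029 without a filter on dim probes, 285 with an intensity trend and 894 with the experiment number as replicate block, under which the member count stayed at 0, and 516 to 1379 without an array, the highest without miR-511 mimic replicate 2, with 796 without control mimic replicate 1. Between experiments they numbered 1863 to 3221 without an array, the lowest without control mimic replicate 2. Pathway genes past the threshold were 0 with normexp correction, 0 with a trend, 1 when the filter asked for all 4 arrays and 2 to 5 without an array, the highest without miR-511 mimic replicate 2. Directions turned for values near 0: THBD between experiments was 0.0010 with 75th percentile scaling and SERPINB2 between mimics 0.025 with normexp correction. The replicate block design ended the call of PLAUR between experiments and of no other member. Without an array, values between mimics ranged from -0.14 to 0.13 (PLAUR), -0.40 to 0.32 (SERPINB2), -0.061 to 0.15 (ANXA2 probe 1), -0.026 to 0.24 (S100A10), -0.96 to 0.37 (F3) and -0.90 to 0.43 (F13A1), and between experiments from -0.075 to 0.076 (PLAU probe 1), -0.070 to 0.016 (THBD) and -0.84 to 0.36 (ANXA2 probe 2). A mimic or experiment with a lone array was assumed to vary like the other. What causes these shifts was not tested. Dim probes (ANXA2 probe 2, F13A1, LRP1, KLKB1, F10, PROC and SERPINC1) lie near background, where signal limits the size of a change that can be read.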
